A study of Mus musculus with 4 samples.

Results

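The guanylate-binding proteins were followed across 4 arrays of J774 cells treated with proteasome inhibitors. The 10 members were Gbp2, Gbp2b (named Gbp1 in older annotations), Gbp3, Gbp4, Gbp5, Gbp6, Gbp7, Gbp8, Gbp9 and Gbp10, taken by symbol from the 20144 genes to which a probe could be assigned. They were measured by 12 of the 39429 probes, with 2 probes each for Gbp2b and Gbp6 and 1 probe for each of the others. J774.1 is a mouse monocyte-macrophage cell line. Its cells were kept for 4 hours with DMSO, the solvent control, or with MG132, epoxomicin or ONX0914, each at 1 μM, and RNA of each culture condition was hybridised to 1 single-color array. The cells differed in no other treatment named in the labels, so all groups share the same line, medium and duration. MG132 is a peptide aldehyde and a reversible inhibitor of the proteasome, epoxomicin is an epoxyketone that binds the 20S proteasome irreversibly, and ONX0914 is an epoxyketone directed at the chymotrypsin-like site, β5i of the immunoproteasome in particular. For the ONX0914 array, the characteristics give the treatment as ONX-0912, whereas the title begins with ONX and the protocol names ONX0914, and the array was assigned accordingly.

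With 1 array per group, differences between conditions had no replicate check, and no p-value was computed. The error given beside a difference is that of the scanning software for a spot on 1 array, and it leaves out the variation between cultures. For the members it was nearly constant, from 0.20 to 0.22 on the log2 scale. A cut at 2 software errors is thus close to a fixed fold threshold for them. As far as known, all 4 arrays lay on 1 slide, with 60.3% to 63.1% of spots well above background and no saturated spot. Macrophage identity was checked with 8 markers, of which 7 had a probe (Csf1r, Lyz2, Adgre1, Itgam, Cd14, Fcgr1 and Spi1), and all 7 were well above background on every array. None of the 3 B cell markers and none of the 2 NK cell markers was above background on any array, whereas Cd3e and Cd4 among 4 T cell markers and Elane of the 2 neutrophil markers with a probe were. Of 3 fibroblast markers, Col1a2 and Pdgfra were above background on at least 1 array, as were Krt8 and Krt18 of 3 epithelial markers. The summed signal of the 4 T cell markers was 5151 under DMSO, 4480 under MG132, 4530 under epoxomicin and 5321 under ONX0914. For the 2 neutrophil markers it was 2239, 2019, 2337 and 2590 in the same order. The sum of the 3 epithelial markers was far lower, at 17.2 under DMSO, 59.2 under MG132, 160 under epoxomicin and 21.5 under ONX0914. The part of these signals in the results was not tested.

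Guanylate-binding proteins are large GTPases of the dynamin superfamily that interferon, interferon-γ above all, induces strongly in macrophages. They collect on vacuoles that hold parasites or bacteria, and on bacteria in the cytosol, and they promote the response of caspase-11 and of inflammasomes to bacterial products. They act beside another family of interferon-induced GTPases, the immunity-related GTPases (IRGs). The 10 members, which need not be all mouse Gbp genes, lie in 2 groups. Gbp5, Gbp7, Gbp3, Gbp2b and Gbp2, in that order, are on chromosome 3, and Gbp8, Gbp9, Gbp4, Gbp10 and Gbp6 are on chromosome 5. The promoters of such genes are known for the interferon-stimulated response element (ISRE), read by interferon regulatory factors and the complexes they form, and for the γ-activated site (GAS), which serves the response to interferon-γ.

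The stretch before the start site is shown for the chromosome 3 genes, the members for which the table used held a window, so that the letters of both elements can be read in place. The windows come from RefSeq (GRCm38.p6, plus strand), hold 250 bases before the start, and run 5′ to 3′. Capitals mark a match to the ISRE core, GAAA followed after any 2 bases by another GAAA, on either strand (TTTC, 2 bases and TTTC when read on the opposite strand), or to the GAS letters TTCNNNGAA, which read alike on both strands. These are 5 of the 10 members.

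Gbp5, chr3:142496684-142496933: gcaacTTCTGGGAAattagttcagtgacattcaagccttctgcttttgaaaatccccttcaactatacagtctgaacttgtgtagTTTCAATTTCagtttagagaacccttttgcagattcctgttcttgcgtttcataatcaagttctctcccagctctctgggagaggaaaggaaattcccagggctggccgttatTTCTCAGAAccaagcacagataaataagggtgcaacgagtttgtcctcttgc
Gbp7, chr3:142530086-142530335: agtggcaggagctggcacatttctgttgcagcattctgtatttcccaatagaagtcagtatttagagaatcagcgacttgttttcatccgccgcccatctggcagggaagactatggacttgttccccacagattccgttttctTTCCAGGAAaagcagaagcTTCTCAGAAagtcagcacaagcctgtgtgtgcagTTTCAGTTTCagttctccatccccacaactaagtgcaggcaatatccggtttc
Gbp3, chr3:142559794-142560043: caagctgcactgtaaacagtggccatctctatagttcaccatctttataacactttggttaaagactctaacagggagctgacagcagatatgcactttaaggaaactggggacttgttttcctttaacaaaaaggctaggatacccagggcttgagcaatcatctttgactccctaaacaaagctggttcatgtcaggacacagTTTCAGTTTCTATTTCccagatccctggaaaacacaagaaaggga
Gbp2b, chr3:142594597-142594846: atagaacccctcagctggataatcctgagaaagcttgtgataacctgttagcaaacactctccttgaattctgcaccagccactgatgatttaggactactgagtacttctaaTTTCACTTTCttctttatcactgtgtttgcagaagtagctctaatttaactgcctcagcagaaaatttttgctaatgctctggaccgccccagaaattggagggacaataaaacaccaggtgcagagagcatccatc
Gbp2, chr3:142620413-142620662: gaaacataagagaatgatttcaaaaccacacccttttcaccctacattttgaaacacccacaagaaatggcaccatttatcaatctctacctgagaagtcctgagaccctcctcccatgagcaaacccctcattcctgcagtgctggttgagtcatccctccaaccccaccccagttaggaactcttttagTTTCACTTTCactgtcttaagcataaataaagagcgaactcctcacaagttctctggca

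All 5 genes held the ISRE core, in each case in the orientation that begins with TTTC, and 2.98% of 32851 RefSeq windows of the same length held it. The match ended 50 bases before the start in Gbp2, 44 bases before it in Gbp7, 128 bases before it in Gbp2b and 156 bases before it in Gbp5. Gbp3 held 2 overlapping ISRE matches, which together spanned bases 45 to 30 before the start. Another Gbp3 window, for a different start site, held no match to either element. GAS letters were present in 2 of the 5 genes, Gbp5 and Gbp7, with 2 matches in each, and in 7.02% of all windows. The sequence TTCTCAGAA was among the GAS matches of both genes. The windows of Gbp5 and Gbp7 thus held both elements, as did 0.332% of all windows. No test was made of these shares, and matches of letters are a description of the sequence and do not show binding. Gbp4, Gbp6, Gbp8, Gbp9 and Gbp10 had no entry in the table.

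In J774 cells, by the software's background-subtracted signal, all 10 members had higher signals with each inhibitor than with DMSO, and all 12 probes were well above background on all 4 arrays. Gbp2b, a member with a C-terminal lipid attachment signal, had a processed signal of 846 under DMSO, 11429 under MG132, 18268 under epoxomicin and 13504 under ONX0914. Its other probe gave 736 under DMSO, 10190 under MG132, 16229 under epoxomicin and 11553 under ONX0914. Both probes thus placed the DMSO array far below the others and the epoxomicin array highest. After scaling of the arrays, the log2 difference from DMSO was 3.94 ± 0.20 (software error) for MG132, 4.41 ± 0.20 for epoxomicin and 4.03 ± 0.20 for ONX0914, or 15.4-fold, 21.2-fold and 16.4-fold. The other probe gave 3.98, 4.44 and 4.01. By the probes that stand for the genes (the brighter one where there are 2), Gbp2b had the highest difference of the family on each inhibitor array, whereas a dimmer Gbp6 probe exceeded it with MG132 and epoxomicin. In bulk RNA, a change in the number of cells with a transcript and in the amount per cell cannot be told apart.

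Gbp2, which also carries a lipid attachment signal and gathers on Toxoplasma vacuoles, had a signal of 1214 under DMSO, 11661 under MG132, 17350 under epoxomicin and 9721 under ONX0914. These were 10.9-fold, 14.0-fold and 8.21-fold increases over DMSO after scaling. Gbp5, a prenylated member linked to inflammasome assembly, had a signal of 91.6 under DMSO, 1019 under MG132, 1598 under epoxomicin and 771 under ONX0914. The differences of Gbp5 corresponded to 12.7-fold, 17.2-fold and 8.63-fold, second to those of Gbp2b by processed signal when 1 probe stands for each gene. On the log2 scale they were 3.66 ± 0.22, 4.10 ± 0.22 and 3.11 ± 0.22. The size of the Gbp5 difference depended on the signal used. Normal-exponential (normexp) correction of the raw signals, which adds an offset to every spot, gave 1.61 for MG132 and 1.10 for ONX0914 when fitted on all spots. Fitted without the spots marked as outliers, a choice made after seeing the data, it gave 2.77 and 2.25. Gbp5 then lay below Gbp2 as well as Gbp2b under both fits. In the fit on all spots, Gbp8 and Gbp10 were the only members below Gbp5 with MG132 and epoxomicin. In the fit without outlier spots, Gbp5 was also below Gbp3 with MG132 (3.14) and epoxomicin (3.72), and below Gbp4 with ONX0914 (2.49).

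Gbp3, a member known mostly from mice that lack the whole chromosome 3 group, had a signal of 1218 under DMSO, 10091 under MG132, 16924 under epoxomicin and 4701 under ONX0914. Its increase was 9.43-fold with MG132, 13.7-fold with epoxomicin and 3.96-fold with ONX0914. Gbp7, reported to take part in oxidative killing and in control of Toxoplasma, had a signal of 191 under DMSO, 1375 under MG132, 2220 under epoxomicin and 724 under ONX0914. Gbp7 showed the same spacing as Gbp3, with 8.18-fold, 11.4-fold and 3.88-fold increases. For both genes the ONX0914 array lay clearly below the other inhibitor arrays.

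**Figure D1:**
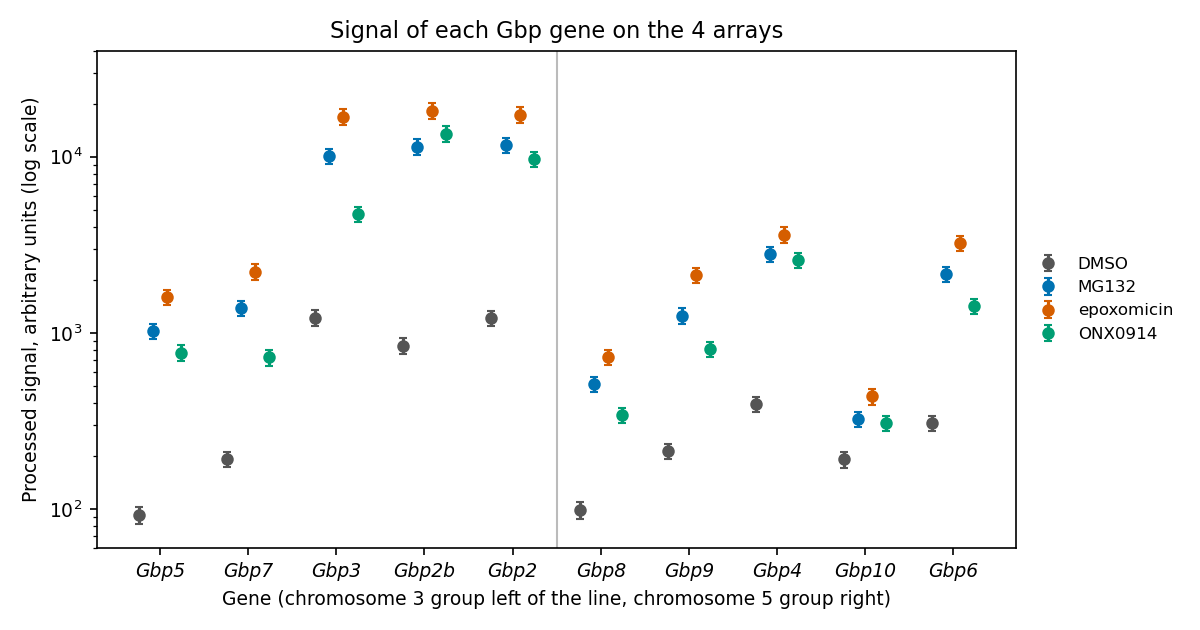
Processed signal (vertical axis, arbitrary units, log scale) of the probe that stands for each Gbp gene (horizontal axis) on the DMSO, MG132, epoxomicin and ONX0914 arrays, with bars giving the software's error for 1 spot value and no replicates. Every DMSO point lies below the inhibitor points of its gene, from 91.6 for Gbp5 to 1218 for Gbp3, and heights of different genes are not comparable because each has its own probe.

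Of the chromosome 5 members, Gbp4, reported as a negative regulator of Irf7 signalling, had a signal of 393 under DMSO, 2807 under MG132, 3612 under epoxomicin and 2585 under ONX0914. Its increases were 8.13-fold, 9.03-fold and 6.75-fold, and its log2 differences, from 2.75 to 3.18, had the narrowest range of the family across the inhibitors. Gbp6 had a signal of 306 under DMSO, 2161 under MG132, 3222 under epoxomicin and 1415 under ONX0914. The other Gbp6 probe gave 127 under DMSO, 1985 under MG132, 3144 under epoxomicin and 1216 under ONX0914. Both Gbp6 probes agreed in order but differed in size, with log2 differences of 3.01, 3.37 and 2.25 for the brighter probe and 4.16, 4.61 and 3.30 for the other.

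Gbp8 had a signal of 98.6 under DMSO, 510 under MG132, 727 under epoxomicin and 340 under ONX0914. The increases of Gbp8 were 5.89-fold, 7.24-fold and 3.54-fold, the lowest in the family after Gbp10. Gbp9 had a signal of 213 under DMSO, 1251 under MG132, 2125 under epoxomicin and 809 under ONX0914, or 6.69-fold, 9.81-fold and 3.90-fold. Normexp correction fitted on all spots took Gbp8 below 2-fold on every inhibitor array, with log2 differences of 0.63, 0.85 and 0.05, whereas the fit without outlier spots gave 1.69, 1.91 and 1.11, all past 2-fold. With ONX0914, Gbp7 gave 0.79 in the fit on all spots and 1.56 in the fit without outlier spots. Gbp9 likewise gave 0.83 and 1.57, so that both genes were below 2-fold in the former fit and past it in the latter. Gbp4 and Gbp6 were past 2-fold with every inhibitor in both fits.

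Gbp10 stood apart from the other members. Its signal was 190.8 under DMSO, 324 under MG132, 435 under epoxomicin and 306 under ONX0914, so that the 4 arrays spanned a much smaller range than for any other member. The differences from DMSO were 1.93-fold, 2.24-fold and 1.64-fold, and the log2 differences 0.95 ± 0.21, 1.16 ± 0.21 and 0.72 ± 0.21 each exceeded 2 software errors. Normexp correction gave 0.03, 0.26 and -0.17 when fitted on all spots and 0.62, 0.86 and 0.42 when fitted without outlier spots. Gbp10 was thus below 2-fold with every inhibitor in both normexp fits, and its direction with ONX0914 was reversed in the former and kept in the latter. Members of the family are similar in sequence, and whether a probe also took up RNA of another member was not tested.

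**Figure D2:**
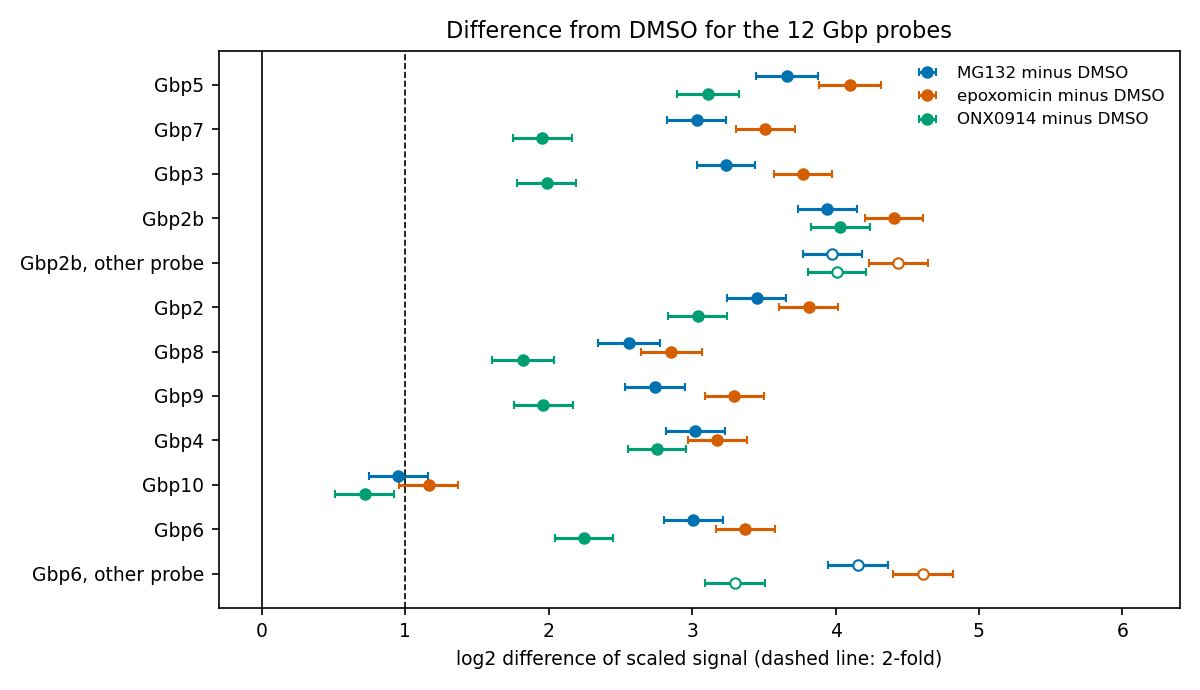
log2 difference from DMSO (horizontal axis) for all 12 probes of the 10 genes (vertical axis) with MG132, epoxomicin and ONX0914, where bars give the software's error, filled points are the probe that stands for the gene and open points the other probe of Gbp2b or Gbp6. All points except those of Gbp10 with MG132 (0.95) and ONX0914 (0.72) lie to the right of the dashed 2-fold line.

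The members were then set beside all genes compared. With MG132, 9 of 10 members were at least 2-fold higher, all but Gbp10, whereas 7.24% of the 13768 genes compared were. With epoxomicin, 10 of 10 members passed 2-fold, and 8.41% of 13869 genes did. With ONX0914, 9 of 10 members passed, again all but Gbp10, and 3.27% of 13792 genes did. Normexp correction fitted on all spots left 8 (MG132), 8 (epoxomicin) and 6 (ONX0914) members past 2-fold, beside 3.43%, 4.14% and 1.4% of genes. Fitted without outlier spots, it left 9 members with each inhibitor, beside 4.41%, 5.01% and 1.56% of genes. The 9 members that passed by processed signal on all 3 inhibitor arrays compare with 1.93% of 14090 genes. No member was 2-fold lower, compared with 3.65% of genes for MG132, 4.49% for epoxomicin and 1.41% for ONX0914. The 3 comparisons use the same DMSO array, so they are not independent of one another, and a deviation of that array in the members would enter all of them.

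At a 4-fold threshold, 9 members passed with MG132 (1.96% of genes) and 9 with epoxomicin (2.42%). With ONX0914, 5 members passed at 4-fold (Gbp2, Gbp2b, Gbp4, Gbp5 and Gbp6), compared with 0.827% of genes. The median difference of the members was 8.15-fold, 10.9-fold and 4.34-fold for MG132, epoxomicin and ONX0914. These medians were 3.03, 3.44 and 2.12 on the log2 scale, whereas the medians of all genes were -0.02, -0.04 and -0.01. Ranked by increase among all genes, Gbp2b was at place 31 under MG132, 38 under epoxomicin and 11 under ONX0914. All members except Gbp10 were within the first 158 places with MG132, 148 with epoxomicin and 146 with ONX0914. Gbp10 held place 1093, 922 and 784.

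**Figure D3:**
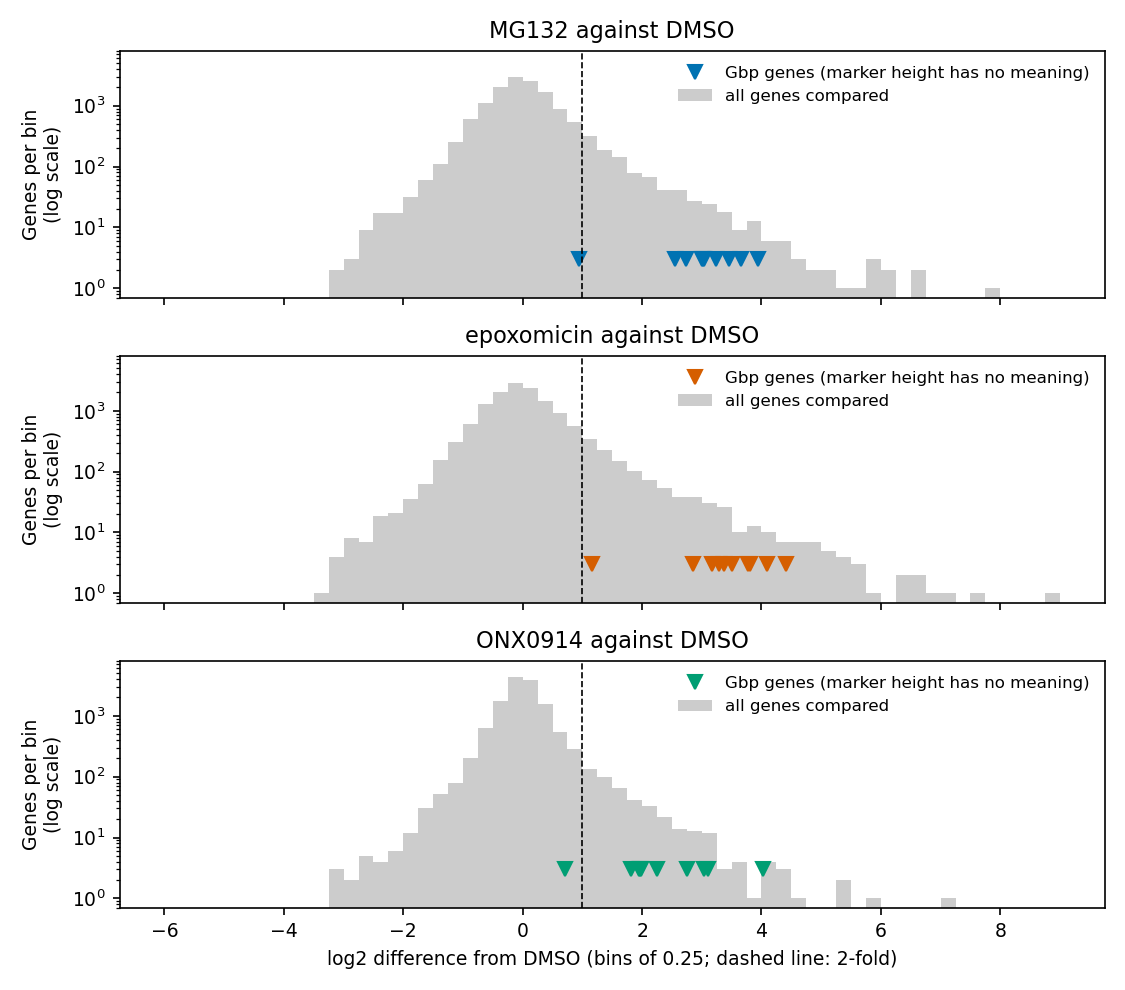
Number of genes (vertical axis, log scale) in each bin of the log2 difference from DMSO (horizontal axis) for MG132, epoxomicin and ONX0914, with the 10 Gbp genes as triangles whose height has no meaning. The triangles other than Gbp10 lie in the right tail, around medians of 3.03, 3.44 and 2.12, while most genes lie near 0.

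Values also differed between the groups on the 2 chromosomes. The chromosome 3 genes had median log2 differences from DMSO of 3.45 (MG132), 3.81 (epoxomicin) and 3.04 (ONX0914). The chromosome 5 genes had medians of 2.74, 3.18 and 1.96. With MG132 the chromosome 3 values ran from 3.03 to 3.94 and the chromosome 5 values from 0.95 to 3.02. These did not overlap by processed signal when the brighter probe of Gbp6 stands for that gene. The nearest values, of Gbp7 and Gbp4, differed by far less than the software error. Under both normexp fits these MG132 ranges overlapped, with Gbp7 (1.78 and 2.54) below Gbp4 (2.38 and 2.74). With epoxomicin the ranges were 3.51 to 4.41 and 1.16 to 3.37. The other Gbp6 probe, at 4.16 with MG132 and 4.61 with epoxomicin, lies above both chromosome 3 ranges. With ONX0914 the ranges overlapped, 1.96 to 4.03 against 0.72 to 2.75. No test was made of this difference between 5 genes and 5 genes, which was noticed in the data.

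The inhibitors were next compared directly at the same dose and time, without the DMSO array, which gave 3 pairs. Among 9 members the order was epoxomicin, MG132, ONX0914 and DMSO from highest to lowest, and in Gbp2b the ONX0914 array came before the MG132 array. Epoxomicin gave higher values than MG132 for 10 of 10 members, compared with 50% of genes, with a median log2 difference of 0.40. The difference ran from 0.15 ± 0.20 in Gbp4 to 0.55 ± 0.20 in Gbp9, and none reached 2-fold, as did 0.785% of genes. It exceeded 2 software errors in 5 members (Gbp2b, Gbp3, Gbp5, Gbp7 and Gbp9), compared with 2.52% of genes. In Gbp2, Gbp4, Gbp6, Gbp8 and Gbp10 the MG132 and epoxomicin arrays lay within 2 software errors of each other.

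ONX0914 gave lower values than MG132 for 9 of 10 members, compared with 47.4% of genes. Gbp3 was lower by 2.38-fold and Gbp7 by 2.11-fold, and these 2 members were the ones past 2-fold, as were 3.05% of genes. The others were Gbp9 at -0.78, Gbp6 at -0.76, Gbp8 at -0.74, Gbp5 at -0.55, Gbp2 at -0.41, Gbp4 at -0.27 and Gbp10 at -0.23 on the log2 scale. Gbp2b, at 0.09 ± 0.20, had ONX0914 and MG132 signals within the software error, and its other probe gave 0.03. The difference exceeded 2 software errors in 7 members (Gbp2, Gbp3, Gbp5, Gbp6, Gbp7, Gbp8 and Gbp9), compared with 11.9% of genes. The remaining Gbp4, Gbp10 and Gbp2b were within 2 errors.

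Epoxomicin and ONX0914 share the epoxyketone group that reacts with the proteasome and differ in the peptide part. ONX0914 gave lower values than epoxomicin for 10 of 10 members, compared with 45.3% of genes, with a median log2 difference of -1.01. The difference was greatest in Gbp3, at -1.79 ± 0.20 or 3.45-fold, and smallest in Gbp2b, at -0.37 ± 0.20. It passed 2-fold in 5 members (Gbp3, Gbp6, Gbp7, Gbp8 and Gbp9), compared with 4.38% of genes. The difference exceeded 2 software errors in 9 members, all but Gbp2b, compared with 14.4% of genes.

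Genes that were higher with MG132 and epoxomicin were mostly lower with ONX0914 than with either. Among 822 genes at least 2-fold higher with both MG132 and epoxomicin, which included 9 members, the median ONX0914 minus MG132 difference was -0.79, with quartiles of -1.09 and -0.55. The 9 members in that set had a median of -0.74. These genes were chosen for high values with MG132 and epoxomicin, which favours lower values with ONX0914. The value of Gbp2b was reached or exceeded by 1.46% of the 822 genes, and that of Gbp3 was reached or undercut by 19.3%. For ONX0914 minus epoxomicin the set had a median of -0.95 and the 9 members a median of -1.03. For epoxomicin minus MG132 the set had a median of 0.16 and the members a median of 0.44.

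**Figure D4:**
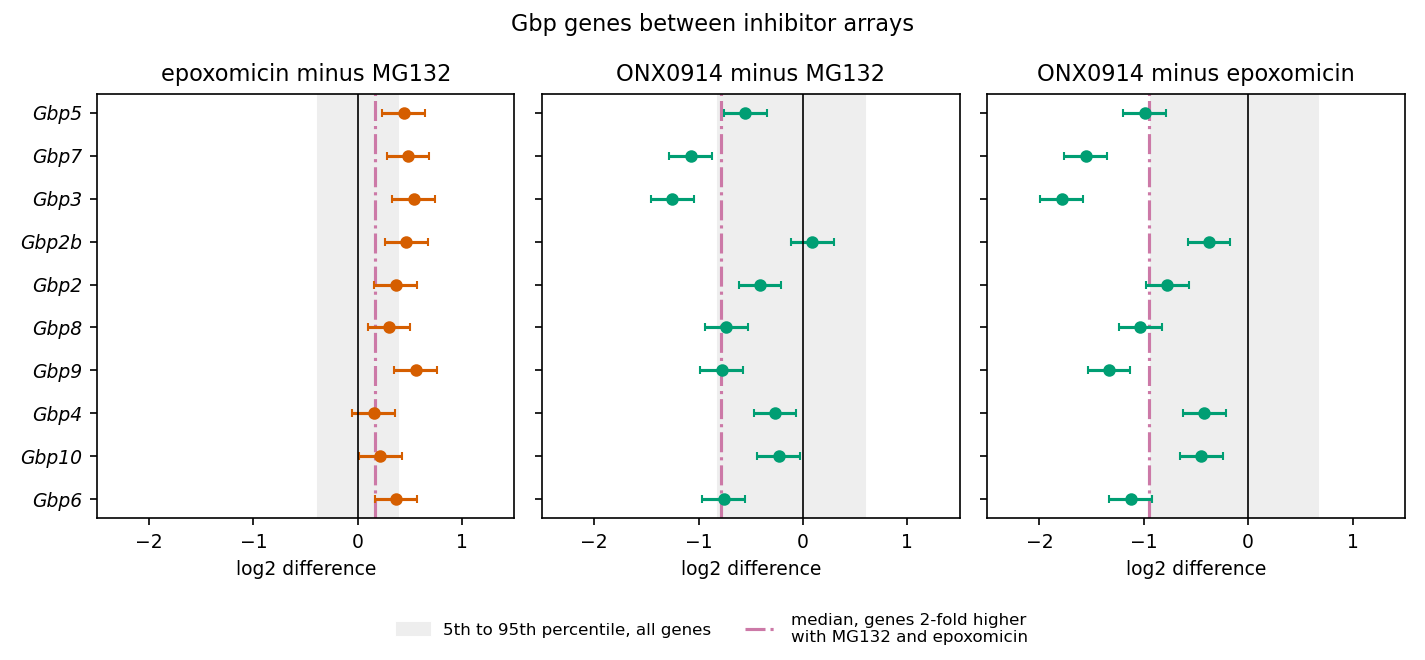
log2 difference between pairs of inhibitor arrays (horizontal axes) for each Gbp gene (vertical axis), with bars for the software's error, a grey band for the 5th to 95th percentile of all genes and a dash-dotted line for the median of the 822 genes 2-fold higher with MG132 and epoxomicin. In ONX0914 minus MG132, Gbp2b lies at 0.09 and Gbp3 at -1.25, with the other members between them.

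Interferon signalling genes, among them factors of the Gbp promoters and inhibitors of the signal, went in both directions. Of 18 such genes, 17 could be compared. At least 2-fold higher were 8 under MG132, 8 under epoxomicin and 6 under ONX0914, whereas 4, 3 and 1 were at least 2-fold lower. Among all genes compared, 7.24%, 8.41% and 3.27% were at least 2-fold higher and 3.65%, 4.49% and 1.41% at least 2-fold lower. The Ifng probe was not well above background on any array. Irf1, a transcription factor of Gbp promoters, had a signal of 9157 under DMSO, 45798 under MG132, 64688 under epoxomicin and 55070 under ONX0914. The log2 differences of Irf1 from DMSO were 2.51, 2.80 and 2.63. Socs1, an inhibitor of JAK kinases that interferon induces, had log2 differences of 3.06, 3.33 and 4.43. Socs3, another inhibitor of cytokine signalling, had differences of 2.26, 2.76 and 3.09, so that both Socs genes were highest with ONX0914.

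Stat2, a component of the complex that reads the ISRE, had log2 differences of 2.31, 2.44 and 1.49 in the same order of inhibitors. Irf7, a factor that amplifies the type I interferon response, gave 2.98, 3.13 and 1.96. Usp18, which restrains the type I interferon receptor, gave 2.94, 3.20 and 2.07. These 3 genes had the array order of most Gbp genes. Irf8 and Irf9 passed 2-fold with MG132 (1.20 and 1.25) and epoxomicin (1.54 and 1.55) and gave 0.79 and 0.83 with ONX0914.

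Receptor genes were lower or little different. Ifngr1, the ligand-binding chain of the interferon-γ receptor, gave -1.15, -1.14 and -0.69. Ifngr2, its partner chain, gave -1.71, -2.28 and -0.77. Ifnar1, a chain of the type I interferon receptor, gave -1.23, -1.35 and -0.66, and Ifnar2 stayed between -0.26 and 0.03. Ifnb1, the gene of interferon-β, had a signal of 71.3 under DMSO, 15.1 under MG132, 84.1 under epoxomicin and 8.08 under ONX0914, and the MG132 and ONX0914 signals were not well above background, where it counts as 2-fold lower by its bound.

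The IRGs, the GTPases that act beside the Gbp proteins, moved with them. All 8 IRG genes were at least 2-fold higher on each inhibitor array, compared with 7.24% (MG132), 8.41% (epoxomicin) and 3.27% (ONX0914) of genes. Their median log2 differences were 3.20 (MG132), 3.54 (epoxomicin) and 2.87 (ONX0914). Igtp, also named Irgm3 and a regulator of the other IRGs, had a signal of 3478 under DMSO, 28820 under MG132, 41906 under epoxomicin and 25502 under ONX0914. Iigp1, an effector that coats parasite vacuoles, gave log2 differences of 3.36, 3.94 and 2.83. The lowest of the 8 was Ifi47 for MG132, epoxomicin and ONX0914 alike, at 2.50, 2.87 and 1.72. Tgtp1 and Tgtp2 are nearly identical genes whose signals may not be separable. The IRG list was drawn up with earlier results of these data known, and its counts are given as a description.

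Most genes of other steps in which Gbp proteins take part were within 2-fold of DMSO, as were most of all genes compared. Of 11 genes for the conjugation of ATG8 proteins, which guide Gbp and IRG proteins to vacuoles, Atg12 and Gabarapl1 were 2-fold higher with MG132 (1.10 and 1.38) and epoxomicin (1.27 and 1.33). With ONX0914, Gabarapl1 passed at 1.13 and Atg12 gave 0.70. Of 9 genes of the caspase-11 and inflammasome steps, Casp4, the mouse gene of caspase-11, gave 2.78, 2.96 and 1.61. Il1b gave 1.43, 2.07 and -0.05, and Pycard, the adaptor ASC, gave -1.33, -1.48 and -0.71. Gsdmd, Aim2, Nlrp3, Casp1, Ninj1 and Il18 stayed within 2-fold on all inhibitor arrays.

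The 6 genes of protein prenylation, the lipid attachment that Gbp2, Gbp2b and Gbp5 undergo, had medians of -0.17, -0.24 and 0.03. One of them, Fnta, the subunit shared by the farnesyl and geranylgeranyl transferases, passed 2-fold lower with MG132 at -1.08. With epoxomicin Fnta was 1.99-fold lower, just short of the threshold, and with ONX0914 it gave -0.38. Among 10 other GTPases of the dynamin superfamily (atlastins, dynamins, mitofusins and Opa1), 9 could be compared and none passed 2-fold in either direction on any inhibitor array, with values between -0.38 and 0.53. Of 10 reference genes used for normalisation in many studies, Gusb passed 2-fold lower with MG132 and epoxomicin (-1.48 and -1.36) and the other 9 did not pass on any array. Among all genes compared, 7.24% (MG132), 8.41% (epoxomicin) and 3.27% (ONX0914) were at least 2-fold higher. Those at least 2-fold lower were 3.65%, 4.49% and 1.41%. In lists of 6 to 10 genes, 1 call is already a larger share than any of these, and the few calls are given as a description.

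**Figure D5:**
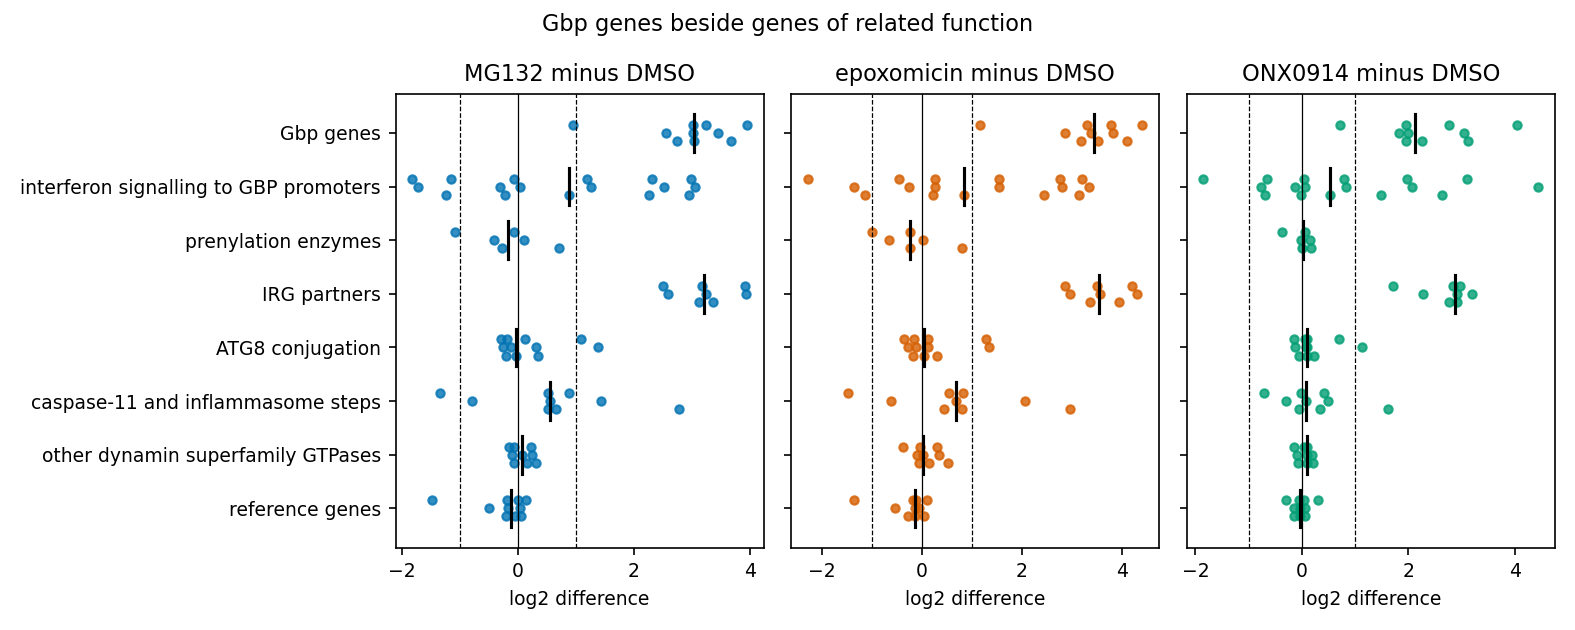
log2 difference from DMSO (horizontal axes) for the Gbp genes and for genes of 7 related or reference lists (vertical axis), each point 1 gene, with black lines for medians and dashed lines at 2-fold; vertical spread within a list has no meaning. The Gbp and IRG genes lie to the right, with medians of 3.03 and 3.20 for MG132, while the other dynamin superfamily GTPases lie near 0, as most genes compared did.

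The genes whose 3 differences came closest to the members' median profile (3.03, 3.44 and 2.12) were sought among 12720 genes by root mean square distance on the log2 scale. The nearest was Usp18 at a distance of 0.15, followed by Irf7 at 0.20. Zfand2a, a heat-inducible zinc-finger gene, was at 0.21, Soat2, an enzyme of cholesterol esterification, at 0.22, and Gadd45g, a stress-inducible gene, at 0.23. The likeness rests on 3 inhibitor arrays that share the DMSO array.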

How the data were processed

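RNA of J774 cells was measured on 4 single-color (Cy3) Agilent arrays, 1 per group. The scanner files that the authors deposited, made with Feature Extraction 10.7.1.1, give the intensity of each spot, background-subtracted within the array and not scaled between arrays. The authors also deposited a log2 value table normalized with GeneSpring. The Methods name a human array design and the file headers a mouse design, which was followed.

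Control spots and spots marked as outliers (159 to 194 per array) were left out. The 75th percentile of each array (processed signals of 1453 to 1683) was subtracted from the log2 signals, and spots of 1 probe were averaged. The value table matched this scaling with r of 0.99968 to 0.999937 per array, and the 75th percentile over probes more closely. Of 39429 probes, 26581 (67.4%) received a symbol through their transcript accession and the mouse RefSeq table of GRCm38.p6. Where a gene had several probes, the brightest on average stood for it. A probe not well above background in 1 group was given as a bound from the lowest signal above background on that array. A gene well above background in neither group was not compared. A difference was called at 2-fold. Errors are the software's signal errors, propagated to the log2 scale. The precision is limited by 1 array per group.

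The genes named were the 10 members, members of 7 lists of related or reference genes, counted in full and named where they changed on every inhibitor array or have a textbook role, and the 5 genes nearest to the members' profile. A gene of the interferon list is not reported here and was left out of its counts. The members and lists were chosen with earlier results of these data known. The calling step was run on simulated data with 200 changed genes per comparison. Of these, 191 (MG132), 194 (epoxomicin) and 193 (ONX0914) were called in the right direction, and 0 unchanged genes were called. The median error in this run was 0.067 (MG132), 0.068 (epoxomicin) and 0.066 (ONX0914) on the log2 scale. The software errors of the members were larger, from 0.20 to 0.22. How calls near the 2-fold threshold fare at errors of that size was not tested. How calls vary between cultures was not tested, as each group had 1 array. Alternatives changed the background correction (normexp, offset 50, limma 3.58.1 in R 4.3.3), the scaling, the value source, the probe choice, the outlier spots, the bounds, the filter on dim probes and the threshold. Python 3.11.15, numpy 2.4.6 and pandas 2.3.3 were used for the rest.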

Additional observations from a re-analysis of the deposited data

How the results depend on the processing

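No paired analysis was possible because each group had 1 array. The members' median difference from DMSO stayed above 0 for each inhibitor under every alternative that gives a median (those on the threshold and the filter on dim probes give counts only). With normexp fitted on all spots it was 1.98 (MG132), 2.39 (epoxomicin) and 1.27 (ONX0914), with 8, 8 and 6 members past 2-fold, and ONX0914 gave medians of -0.55 against MG132 and -0.85 against epoxomicin. Gbp8 was no longer past 2-fold for any inhibitor, nor Gbp10 with epoxomicin or Gbp7 and Gbp9 with ONX0914, and Gbp10 with ONX0914 reversed to -0.17. Fitted without outlier spots, an alternative added after seeing the data, normexp gave 2.69, 3.00 and 1.90, again with -0.55 and -0.85, with 9 members past 2-fold for each inhibitor. There Gbp8 (1.69, 1.91 and 1.11) and, with ONX0914, Gbp7 (1.56) and Gbp9 (1.57) passed again, Gbp10 gave 0.42 with ONX0914, and the call lost was Gbp10 with epoxomicin, at 0.86. Averaging the probes of a gene gave 3.13, 3.64 and 2.37. Scaling by the median gave 2.93 (MG132) and -0.55 (ONX0914 against MG132). Without scaling, the values were 2.84 (MG132), 0.61 (epoxomicin against MG132) and -0.49 (ONX0914 against MG132), and the median of all genes shifted by -0.18, 0.21 and 0.15 in these comparisons. Relative to all genes, the members' MG132 median was 3.04 without scaling and 3.05 with it. At 4-fold, 5 members passed with ONX0914. Epoxomicin was the highest array for all 10 members, and ONX0914 the lowest inhibitor array for all but Gbp2b, under each alternative that gives members' values. Why normexp moved the dim members more was not tested.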

Other observations

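The genes that flank the Gbp groups were chosen after the values were seen. Before the chromosome 3 group, Pdlim5 gave log2 differences from DMSO of 1.02 (MG132), 1.08 (epoxomicin) and 0.57 (ONX0914), and Stpg2 gave 0.25, 0.17 and 0.13. Behind the group, Kyat3 was lower, at -1.64, -1.57 and -0.41, and Gtf2b gave 0.45, 0.70 and 0.26. Beside the chromosome 5 group, Zfp951, Thoc2l, Lrrc8b and Lrrc8c stayed within 2-fold on every inhibitor array.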
